A study of Homo sapiens with 6 samples.

Results

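The genes described here drive entry into mitosis, build the spindle and kinetochore, and divide the cell. They were 46 genes fixed by symbol in 10 functional groups, out of 60643 genes in the expression table, and each symbol matched a single row. Their RNA was measured in HCT116, an established line of human colorectal cancer cells, here with a short hairpin RNA (shCAPG) that doxycycline switches on against CAPG, an actin filament capping protein. The untreated group (-Dox, genotype label WT, 3 libraries) and the induced group (+Dox, genotype label CAPG Knockdown, 3 libraries) both carried the hairpin, and +Dox cells received doxycycline at 100 ng/µl, the unit as labelled, for 3 days. Cells grew in DMEM with fetal bovine serum and antibiotics. The labels do not state whether the line was a clone or a pool, and libraries with doxycycline but no hairpin, or with another hairpin, were not analysed here. Effects of the drug and of the hairpin cannot be told apart. Nothing in the labels ties the numbered libraries to separate cultures, and the spread between libraries that each p-value is based on may be technical.

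Mitosis starts when cyclin B bound to CDK1 is switched on. WEE1 holds CDK1 off by phosphorylation, the CDC25 phosphatases remove that block, and PLK1 and the Aurora kinases reinforce the switch. Kinetochores then attach chromosomes to spindle microtubules, the spindle checkpoint delays anaphase until attachment is complete, and CDC20 turns on the anaphase-promoting complex (APC/C), the ubiquitin ligase that destroys cyclin B and securin. Transcripts of most of these genes accumulate in G2 and M phase. In bulk RNA a change in the share of cells in G2 or M cannot be told apart from a change in RNA per cell.

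Levels are given in FPKM, fragment counts scaled to transcript length and library size. CAPG itself averaged 57.2 ± 3.75 FPKM in the untreated libraries and 8.73 ± 1.08 FPKM in the induced ones (SD, n = 3), so the targeted gene followed the labels. Estimated depth was 14100000 to 18000000 fragments per library, at which 3 fragments in a 1 kb transcript equal 0.167 to 0.213 FPKM. The lowest value of any of the 46 genes was 10.6 FPKM, so all 46 were far above that level and all 46 were tested. Of the colorectal epithelial markers EPCAM, KRT8, KRT18, KRT19, CDH1 and CDX2 were present and VIL1 and LGALS4 stayed under 1 FPKM. Summed endothelial markers reached at most 0.573 FPKM in any library, and the leukocyte and fibroblast sums (2.59 to 5.17 and 7.58 to 11.3 FPKM) came almost wholly from CD68 and COL1A1, with COL1A2, DCN and CD3E at 0. The summed epithelial markers were at 1658 to 1860 FPKM without and at 1867 to 2202 FPKM with doxycycline. All 6 tested epithelial markers had positive log2 changes (median 0.20), where 49.6% of all tested genes did. In 4 of them every +Dox library lay above every -Dox library, as in 17% of all tested genes. Of the 6, 1, EPCAM, was called higher (190 to 241 FPKM), where 3.69% of all tested genes were. CD68 was called lower (3.94 to 2.01 FPKM). The part of these markers in the results was not tested. Replicate 3 with doxycycline stood apart: its FPKM values summed to 586911, against 521832 to 536037 in the other 5 libraries. It held the highest +Dox value of 30 of the 46 genes.

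Few of the G2/M genes passed the test, and most measured differences were small. With doxycycline 2 of the 46 genes rose, the mitotic cyclin gene CCNB1 and the kinase gene PLK1, and 1 fell, the phosphatase gene CDC25B (limma, Benjamini-Hochberg adjusted p under 0.05 over 14475 tested genes). Of all tested genes 3.69% were called higher and 4.77% lower, 8.46% in all, and 3 of 46 is close to that background. At an unadjusted limma p under 0.05, 13 of the 46 were higher and 4 lower (28.3% and 8.70%), where 13.6% and 14.3% of all tested genes were, 27.9% in all. The log2 change, on the log2(FPKM + 1) scale used throughout, was positive in 31 of the 46 (67.4%) and in 49.6% of all tested genes. Its median was 0.09 over the 46 genes and -0.0026 over all. The median of the 46 was 0.0569 without -Dox replicate 1, 0.0645 without +Dox replicate 3 and at most 0.113 with any other library dropped. With libraries scaled to equal totals the median of the 46 was 0.04 and 27 of them were positive, while the median of all genes was -0.05. After quantile normalization the median of the 46 was 0.03 with 29 positive, and that of all genes was 0.0043.

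**Figure D1:**
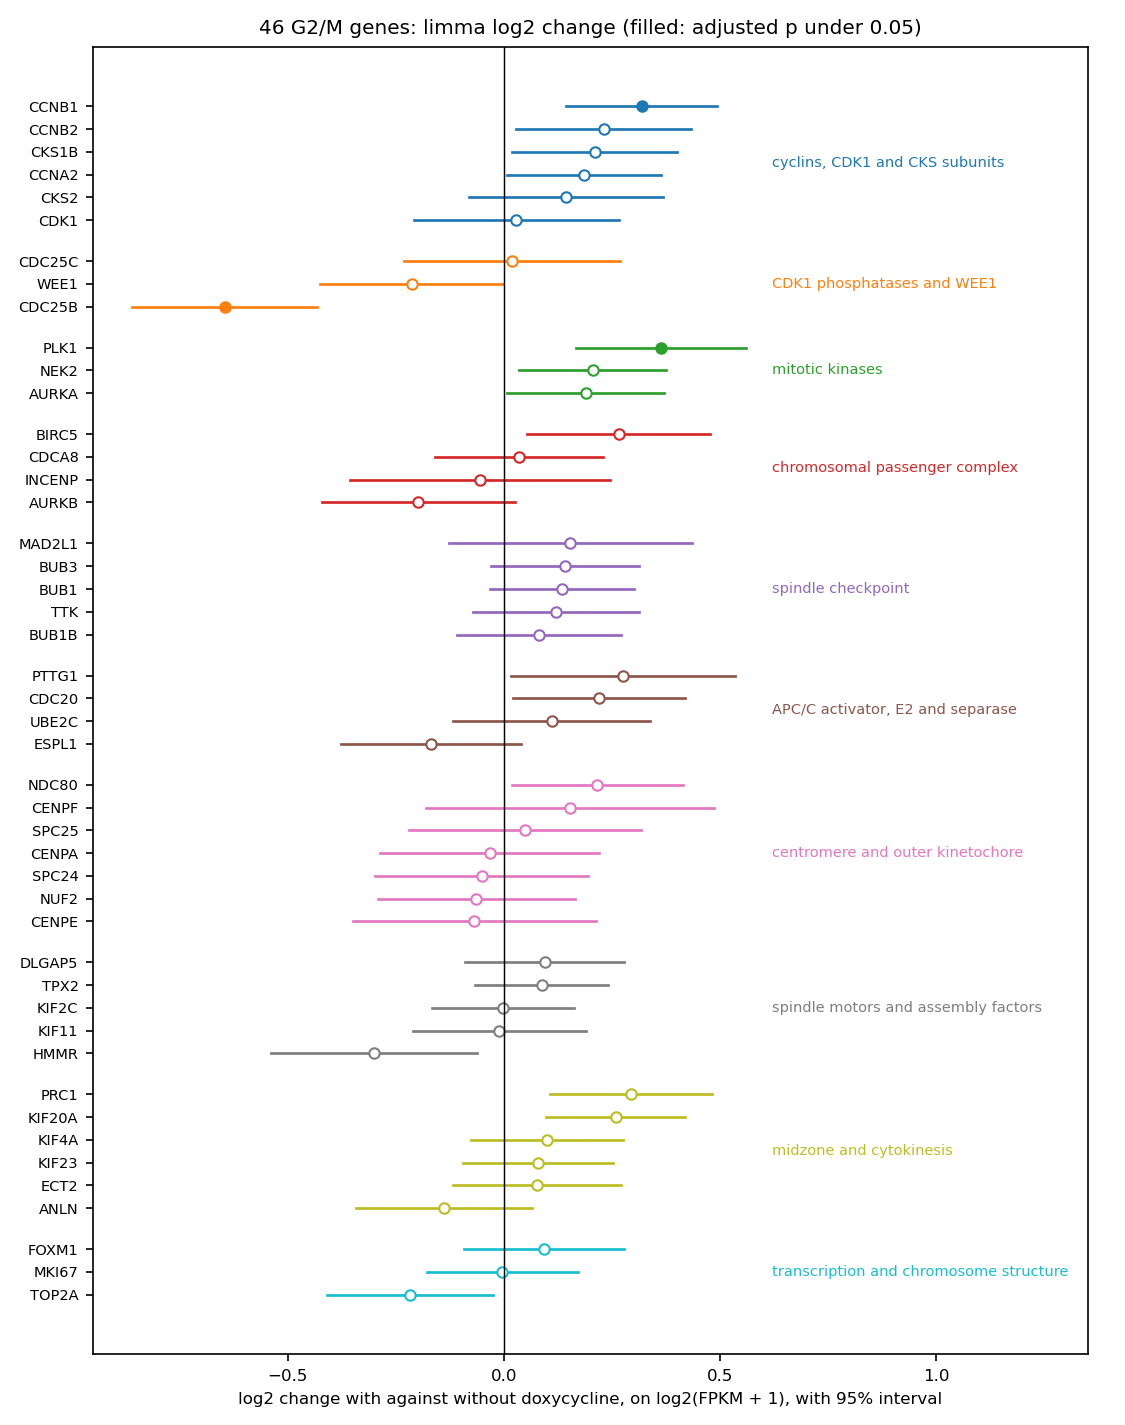
Horizontal axis: log2 change with against without doxycycline on the log2(FPKM + 1) scale. Points are limma estimates for each of the 46 genes by functional group, lines are 95% intervals, and filled points passed an adjusted p of 0.05. CCNB1 (0.32), PLK1 (0.36) and CDC25B (-0.65) are filled, and only the CDC25B interval reaches beyond a 1.5-fold change.

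Given the spread between these libraries, most changes were bounded narrowly. In 45 of the 46 genes the 95% interval of the log2 change, unadjusted and per gene, lay within a 1.5-fold change in either direction. The exception was CDC25B. Such intervals were found in 76.9% of all tested genes and in 88.8% of 169 other mitotic genes described below. These sets were not matched for level, and the lowest value of the 46 was 10.6 FPKM. The proliferation marker gene MKI67 had a log2 change of -0.0037, with an interval from -0.18 to 0.17. KIF2C, a microtubule-depolymerising kinesin, had -0.0027 (-0.17 to 0.16), and KIF11, the bipolar spindle kinesin, had -0.01 (-0.21 to 0.19). In 17 of the 46 genes (37.0%) every +Dox library lay above every -Dox library, and in 3 (6.52%) every +Dox library lay below. The same shares of all tested genes were 17% and 17.5%, or 34.5% in either direction.

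**Figure D2:**
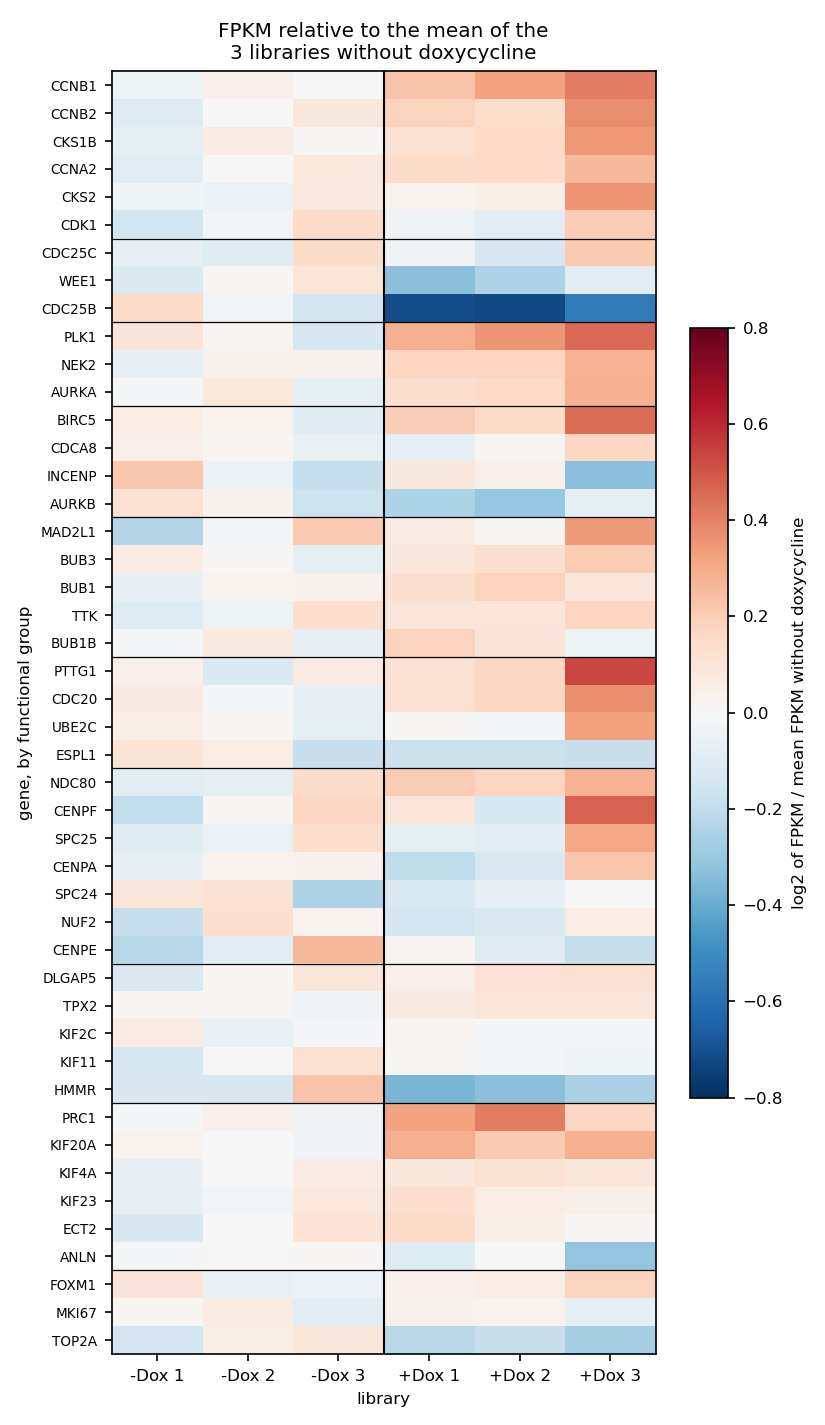
Rows are the 46 genes by functional group, columns the 6 libraries, and colour the log2 ratio of each FPKM value to the gene's mean over the 3 libraries without doxycycline. Replicate 3 with doxycycline holds the highest +Dox value in 30 of the 46 rows, and CDC25B is the row with the lowest ratios in all 3 +Dox libraries.

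Among the cyclins, CDK1 and its CKS subunits, 1 of 6 rose (16.7%, against 3.69% of all tested genes), 0 fell and 5 did not pass. All 6 changes were positive, with a median log2 change of 0.20. CCNB1 encodes cyclin B1, the main CDK1 partner at mitotic entry (ENSG00000134057, chromosome 5, 69167135 to 69178245, GRCh38). Its FPKM values were 143, 151 and 147 in -Dox replicates 1 to 3 and 172, 184 and 195 in +Dox replicates 1 to 3. The groups did not overlap. The log2 change was 0.32 (SE 0.08, limma adjusted p = 0.0377), and leaving out any library other than +Dox replicate 3 ended the call (adjusted p up to 0.125). CCNB2, the other B-type cyclin gene, was at 57.7, 62.2 and 66.0 FPKM and at 70.5, 68.2 and 80.2 FPKM, again without overlap (log2 0.23, limma adjusted p = 0.132). CCNA2, whose cyclin A2 acts in S phase and G2, was at 52.3 ± 3.05 and 59.6 ± 2.68 FPKM (SD, n = 3; limma adjusted p = 0.164). The kinase gene itself showed no such separation: CDK1 was at 109, 119 and 135 FPKM and at 118, 114 and 139 FPKM (log2 0.03, interval -0.21 to 0.27).

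The CKS proteins are small subunits that bind CDK1 and help it reach substrates that are already phosphorylated. CKS2 was the most abundant of the 46 transcripts per length, at 262 ± 12.4 FPKM without doxycycline and 291 ± 37.9 FPKM with it. Replicate 3 was the highest +Dox value, at 334 FPKM against 268 and 270, and without it the log2 change went from 0.14 to 0.0382. CKS1B was at 99.5 ± 4.74 and 115 ± 9.70 FPKM (limma adjusted p = 0.145). Its processed pseudogene CKS1BP3 was listed at 126 to 200 FPKM, so reads could have been exchanged between them and the CKS1B values are uncertain. As a description chosen after the values were seen, the FPKM ratio of CCNB1 to CDK1 was 1.22 ± 0.114 without and 1.49 ± 0.110 with doxycycline, without overlap, while that of CCNB1 to CCNB2 was 2.38 ± 0.131 and 2.52 ± 0.150, with overlap.

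The enzymes that set CDK1 phosphorylation differed among themselves. CDC25B, the phosphatase that acts early at the G2 to M transition (ENSG00000101224, chromosome 20, 3786772 to 3806121, GRCh38), fell with the smallest p of the 46 genes. It was at 68.7, 60.8 and 55.8 FPKM in -Dox replicates 1 to 3 and at 37.7, 37.4 and 41.9 FPKM in +Dox replicates 1 to 3. The groups were well separated, with 63.2% of the untreated mean left. The log2 change was -0.65 (SE 0.10, limma adjusted p = 0.00705), and the call held whichever of the 6 libraries was dropped (adjusted p 0.0106 to 0.0305). CDC25C, the related phosphatase and the least abundant of the 46 transcripts per length, was at 11.9, 11.6 and 13.8 FPKM and at 12.2, 11.4 and 14.4 FPKM (log2 0.02, interval -0.23 to 0.27). The intervals of CDC25B and CDC25C did not overlap. Their FPKM ratio was 5.01 ± 0.881 without and 3.10 ± 0.185 with doxycycline. That ratio is a description that follows from the fall of CDC25B and adds no separate support for it. WEE1, the inhibitory kinase, was at 26.8 ± 1.96 and 23.0 ± 1.99 FPKM (log2 -0.21, limma adjusted p = 0.177), with 1 -Dox library below the highest +Dox library.

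All 3 genes of the mitotic kinase group had +Dox libraries above every -Dox library, as in 17% of all tested genes. Of the 3, 1, PLK1, was called higher (33.3%, against 3.69% of all tested genes). Other kinase genes were placed in other groups, among them AURKB (log2 -0.20, with overlap), TTK (0.12, with overlap) and BUB1 (0.13, without overlap). PLK1 (Polo-like kinase 1, ENSG00000166851, chromosome 16, 23677656 to 23690367, GRCh38) acts in mitotic entry, centrosome maturation and cytokinesis. It was at 66.3, 62.6 and 56.3 FPKM without doxycycline and at 75.2, 78.9 and 84.6 FPKM with it. Its log2 change of 0.36 (SE 0.09, limma adjusted p = 0.0360) lost its call whichever of the 6 libraries was dropped (adjusted p 0.0549 to 0.120). NEK2, a centrosome-separating kinase, was at 52.3, 55.9 and 55.9 FPKM and at 61.6, 61.7 and 66.3 FPKM (log2 0.20, limma adjusted p = 0.115). AURKA, the centrosomal Aurora kinase that activates PLK1, was at 55.1, 58.9 and 52.8 FPKM and at 61.1, 61.8 and 67.7 FPKM (log2 0.19, adjusted p = 0.164).

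**Figure D3:**
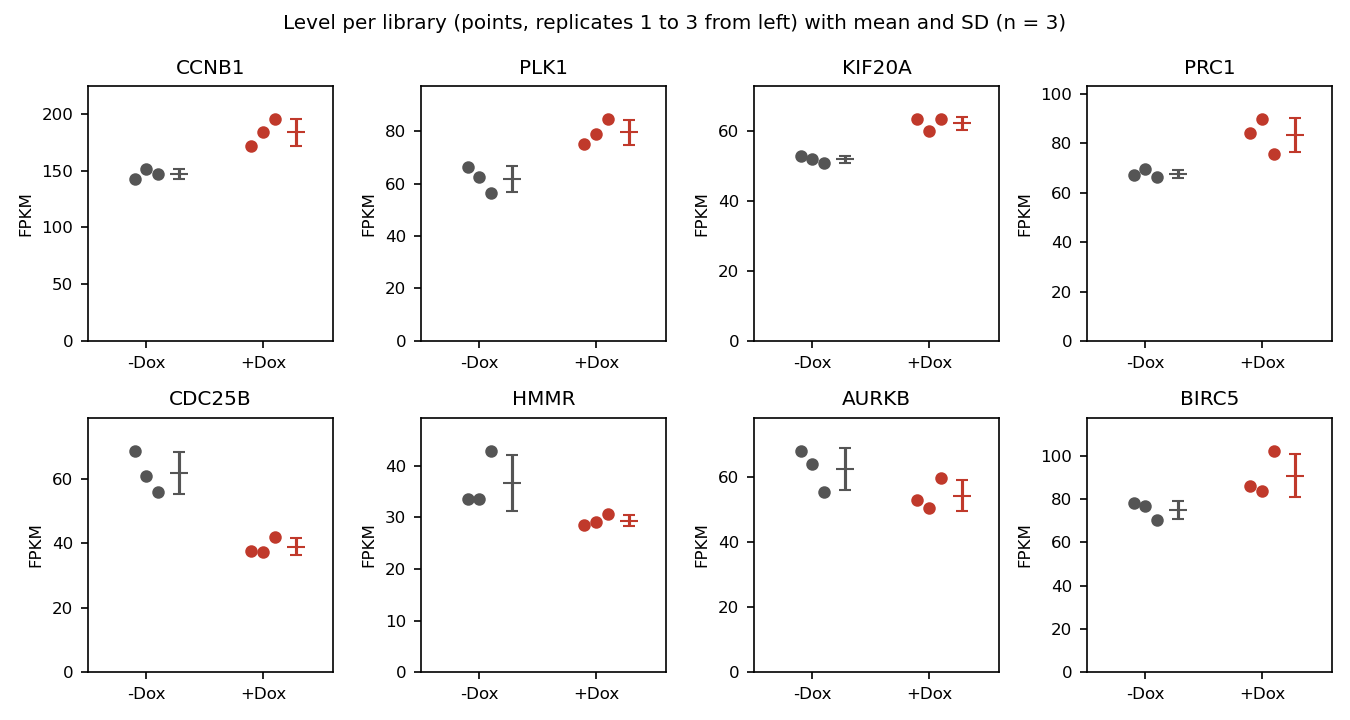
FPKM per library (vertical axis from 0; points, replicates 1 to 3 from left) with the mean and SD (n = 3) for 8 of the genes without (-Dox) and with doxycycline (+Dox). CCNB1, PLK1, KIF20A, PRC1 and BIRC5 have +Dox points above all -Dox points, CDC25B and HMMR below, and AURKB overlaps.

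Promoters of G2/M genes are known for a pair of sequence elements, the CHR (cell cycle genes homology region) bound by the MuvB-containing complexes and the CCAAT box bound by NF-Y. RefSeq windows of 300 bases (250 before to 50 after the start, GRCh38.p14) matched 38 of the 46 genes by symbol. A single window was searched per symbol, so letters at any other start site of a gene were not seen. CHR letters (TTTGAA or TTCGAA, both strands) stood in 27 of the 38 windows (71.1%), against 16.6% of 27305 windows of all genes, and CCAAT letters (both strands) in 30 (78.9%) against 35.7%. The elements are printed for the 3 genes that passed the test, CHR and CCAAT letters in capitals, to show how these elements are placed where they occur.
CCNB1, chr5:69166900-69167199, plus strand: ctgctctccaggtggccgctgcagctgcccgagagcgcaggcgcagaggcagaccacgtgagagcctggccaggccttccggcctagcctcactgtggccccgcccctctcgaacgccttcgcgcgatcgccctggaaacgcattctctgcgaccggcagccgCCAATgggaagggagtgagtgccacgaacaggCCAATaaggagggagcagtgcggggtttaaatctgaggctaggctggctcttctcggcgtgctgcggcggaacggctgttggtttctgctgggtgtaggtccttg
PLK1, chr16:23678639-23678938, plus strand: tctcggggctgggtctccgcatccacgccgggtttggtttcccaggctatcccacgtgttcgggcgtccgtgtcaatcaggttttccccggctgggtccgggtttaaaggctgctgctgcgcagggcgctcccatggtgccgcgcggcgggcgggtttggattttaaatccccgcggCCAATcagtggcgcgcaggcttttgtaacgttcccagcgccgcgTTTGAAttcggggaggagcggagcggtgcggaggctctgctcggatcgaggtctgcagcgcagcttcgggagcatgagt
CDC25B, chr20:3786701-3787000, plus strand: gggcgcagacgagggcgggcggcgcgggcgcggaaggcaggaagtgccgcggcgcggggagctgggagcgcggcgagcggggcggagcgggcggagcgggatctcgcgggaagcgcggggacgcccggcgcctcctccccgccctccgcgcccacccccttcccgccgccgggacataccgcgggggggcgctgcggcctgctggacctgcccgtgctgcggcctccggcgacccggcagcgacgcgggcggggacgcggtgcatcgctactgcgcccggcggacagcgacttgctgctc

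PLK1 held CCAAT letters 73 bases and CHR letters 29 bases before the start. CCNB1 held CCAAT letters 87 and 55 bases before the start and none of the 2 CHR spellings searched. CDC25B held neither in its window, while HMMR and TOP2A, with lower values in every +Dox library, held both. The 23 genes with both elements had a median log2 change of 0.08 and 16 of them were positive. The 27 with CHR letters also had a median of 0.08, and the 11 without either spelling searched, CCNB1 included, had 0.02. Other spellings of the CHR were not searched, so this split does not separate genes with a CHR from genes without. The 30 with CCAAT letters had a median of 0.10, with 21 positive, and the 8 without, CDC25B included, had -0.03, with 3 positive. With a single window per symbol, that split does not separate genes with a CCAAT box from genes without either. A match describes letters in the window only and does not show that a factor binds there.

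**Figure D4:**
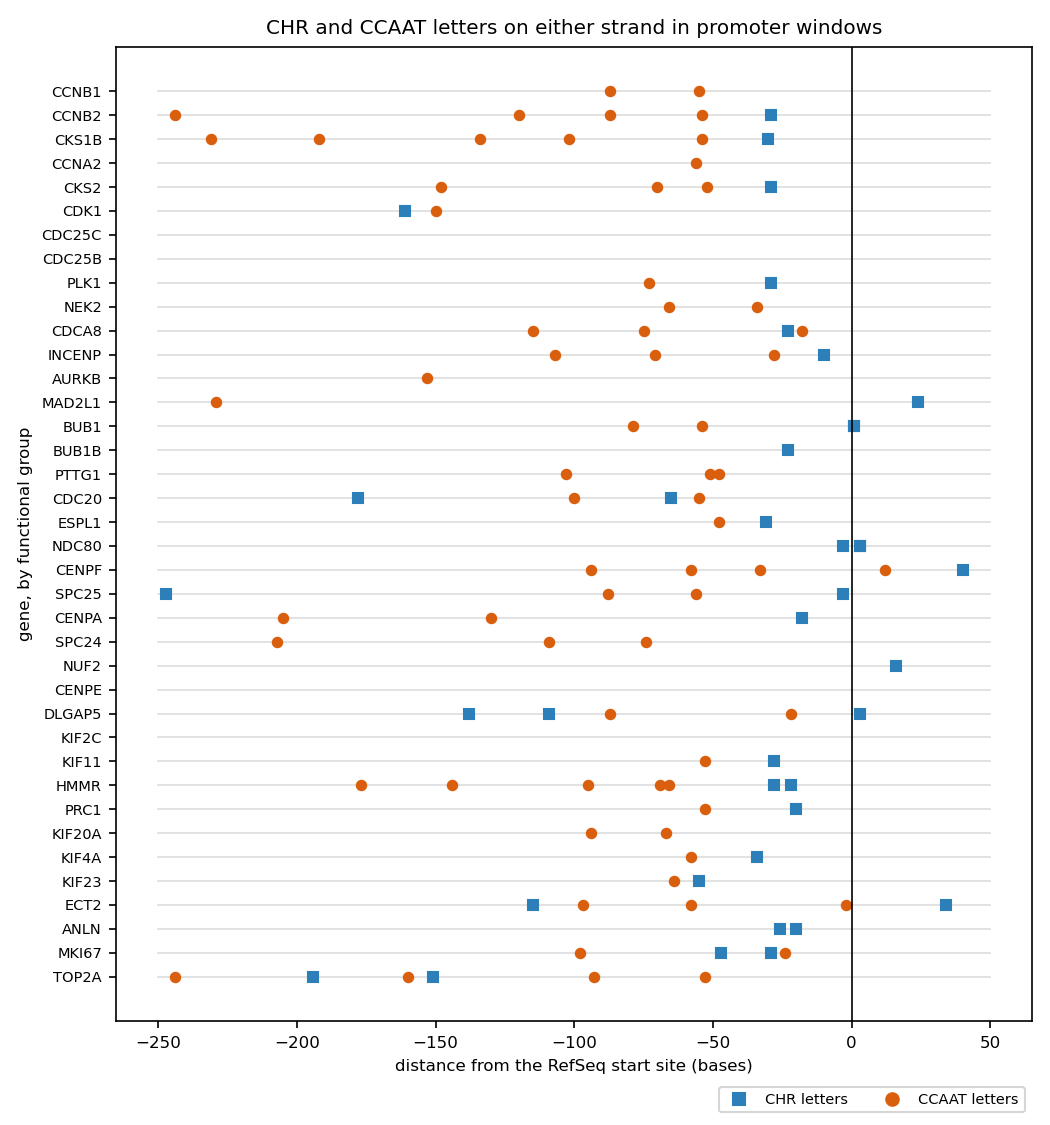
Horizontal axis: distance in bases from the RefSeq start site. Rows are the 38 genes with a promoter window, squares CHR letters and circles CCAAT letters on either strand. Of 37 CHR positions 22, and of 68 CCAAT positions 46, lie in the 100 bases before the start. CDC25B, CDC25C, CENPE and KIF2C have none of the letters searched in their single window, and other start sites were not searched.

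The chromosomal passenger complex couples the kinase Aurora B to the inner centromere through INCENP, survivin and borealin. Of its 4 genes 0 passed. BIRC5, which encodes survivin, was at 78.2, 76.7 and 70.4 FPKM without doxycycline and at 86.1, 83.8 and 102 FPKM with it, without overlap (log2 0.27, limma adjusted p = 0.106). AURKB had lower values, 68.0, 64.1 and 55.4 FPKM against 52.8, 50.6 and 59.5 FPKM, with overlap (log2 -0.20, adjusted p = 0.229). The partners thus pointed in opposite directions, and the FPKM ratio of AURKB to BIRC5, chosen after the values were seen, was 0.831 ± 0.0411 without and 0.600 ± 0.0155 with doxycycline. CDCA8 (borealin) was at 30.5 ± 1.05 and 31.3 ± 2.66 FPKM and INCENP at 32.6 ± 4.73 and 31.4 ± 4.83 FPKM.

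The spindle checkpoint genes differed by little. Of the 5, 0 passed at the adjusted limma threshold and 0 at an unadjusted p under 0.05, and all 5 log2 changes were positive (median 0.13). BUB3, a WD-repeat protein shared by several checkpoint complexes, was at 201, 194 and 183 FPKM and at 205, 211 and 222 FPKM (log2 0.14, limma adjusted p = 0.261). BUB1, the checkpoint kinase, was at 54.4, 58.1 and 58.5 FPKM and at 62.2, 64.7 and 61.0 FPKM (adjusted p = 0.271). In both genes the groups did not overlap. TTK (the kinase MPS1), BUB1B (the pseudokinase BUBR1) and MAD2L1, which inhibits CDC20, overlapped between groups, with log2 changes of 0.12, 0.08 and 0.15. These depended on single libraries: with a library dropped they ranged from 0.07 to 0.19 for TTK, 0.03 to 0.14 for BUB1B and 0.04 to 0.26 for MAD2L1.

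Of the 4 genes of the APC/C activator CDC20, its ubiquitin-conjugating enzyme UBE2C, securin (PTTG1) and separase (ESPL1), 0 passed. CDC20 was at 127, 121 and 116 FPKM without doxycycline and at 132, 136 and 157 FPKM with it (log2 0.22, limma adjusted p = 0.143). PTTG1 was at 201, 181 and 205 FPKM and at 212, 219 and 283 FPKM (log2 0.28, adjusted p = 0.156). Both genes had groups that did not overlap, with replicate 3 the highest +Dox library, as it also was for UBE2C (195 FPKM against 156 and 154). Without that library the log2 changes were 0.14 for both CDC20 and PTTG1 and 0.0013 for UBE2C, against 0.11 with it. ESPL1, the protease that securin inhibits, was at 31.3, 30.1 and 25.5 FPKM and at 25.6, 25.6 and 25.5 FPKM (log2 -0.17, adjusted p = 0.271), and its change was -0.11 without -Dox replicate 1 and -0.25 without -Dox replicate 3. The pseudogene CDC20P1 was listed at 8.69 to 11.8 FPKM.

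The centromere and outer kinetochore genes stood close to 0 change, with 0 of 7 called, a median log2 change of -0.03 and 4 of 7 negative. NDC80, NUF2, SPC24 and SPC25 encode the 4 subunits of the NDC80 complex, the main microtubule coupler. Without doxycycline their levels per length were 37.5 ± 4.11 FPKM for NUF2, 31.5 ± 2.87 for NDC80, 28.6 ± 2.59 for SPC25 and 12.6 ± 1.72 for SPC24. NUF2, NDC80 and SPC25 overlapped with their neighbours in this order across the -Dox libraries, and SPC24 lay below all 3. NDC80 alone of the 4 had +Dox libraries above all -Dox libraries, at 29.8, 29.9 and 34.8 FPKM and at 36.3, 35.5 and 38.3 FPKM (log2 0.22, limma adjusted p = 0.146). CENPA, the centromeric histone H3 variant, was at 25.4 ± 1.02 and 25.0 ± 4.07 FPKM. CENPF, a large kinetochore protein gene, was at 76.8, 88.5 and 98.8 FPKM and at 94.3, 80.5 and 122 FPKM. Its positive log2 change (0.15, adjusted p = 0.540) rested on +Dox replicate 3 and was -0.0071 without it. CENPE, the kinetochore kinesin gene, had a log2 change of -0.07.

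Among the spindle motors and assembly factors 0 of 5 passed, and the median log2 change was -0.0027. HMMR, a microtubule-binding protein that also binds hyaluronan, had the largest difference of the group. It was at 33.5, 33.5 and 42.9 FPKM without doxycycline and at 28.5, 29.1 and 30.6 FPKM with it, without overlap (log2 -0.30, limma adjusted p = 0.103). Without -Dox replicate 3, its highest library, the log2 change was -0.19. TPX2, the activator of Aurora A on the spindle, was at 90.8, 90.1 and 88.0 FPKM and at 94.1, 95.9 and 95.7 FPKM. Those groups did not overlap either, but the log2 change was only 0.09 (adjusted p = 0.448). DLGAP5, a spindle-stabilising protein gene, overlapped between groups (log2 0.09, 0.04 without -Dox replicate 1 and 0.14 without -Dox replicate 3).

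Of the 6 genes of the central spindle and cytokinesis 0 passed, with 2 just outside the threshold. KIF20A, the kinesin that carries the passenger complex to the midzone, was at 53.0, 52.0 and 50.9 FPKM and at 63.4, 60.2 and 63.4 FPKM (log2 0.26, limma adjusted p = 0.0564). PRC1, the bundler of antiparallel microtubules, was at 67.2, 69.5 and 66.2 FPKM and at 84.4, 89.8 and 75.9 FPKM (log2 0.29, adjusted p = 0.0584). Both were higher in all 3 +Dox libraries. Without +Dox replicate 3 PRC1 was called (log2 0.36, limma adjusted p = 0.0227), beside CCNB1, where 2.82% of all tested genes were called higher. KIF4A, the chromokinesin that partners PRC1, KIF23 and ECT2, which act in the centralspindlin and RhoA pathway, had log2 changes of 0.10, 0.08 and 0.08. ANLN, the anillin of the contractile ring, was the negative member at 74.5 ± 0.607 and 67.8 ± 7.41 FPKM (log2 -0.14, adjusted p = 0.353), and its change was -0.05 without +Dox replicate 3.

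FOXM1, the transcription factor that activates many G2/M genes, was at 49.3, 44.1 and 44.4 FPKM and at 47.3, 47.9 and 51.9 FPKM, with overlap (log2 0.09, limma adjusted p = 0.502). Its change was 0.14 without -Dox replicate 1 and 0.05 without +Dox replicate 3. TOP2A, the topoisomerase that untangles sister chromatids, was at 73.7, 84.8 and 87.6 FPKM and at 70.3, 72.2 and 68.2 FPKM. Every +Dox value of TOP2A lay below every -Dox value (log2 -0.22, adjusted p = 0.135). MKI67 was at 95.8, 98.9 and 89.0 FPKM and at 96.8, 96.5 and 89.5 FPKM. Together with FOXM1, these gave 0 of 3 genes called in the group of transcription and chromosome structure.

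Which genes were called depended on the analysis. When a library was left out, 0.597% to 2.82% of all tested genes were called higher and 1.1% to 4.18% lower. In 14 other settings 37 of the 46 genes were never called, and 9 were called in at least 1 setting. In 1 setting each library was corrected for transcript length and GC content, taken as medians over all GENCODE 29 transcripts of a gene. Such a median, 579 bases for TOP2A, need not be the length behind the FPKM values. After this correction BIRC5, CDC20, KIF20A and PRC1 joined CCNB1 and PLK1 as called higher, and HMMR and TOP2A joined CDC25B as called lower. That made 6 higher and 3 lower of 46, where 8.82% and 7.25% of all tested genes were called higher and lower. With the genes of low values left in, 0 of the 46 were called in either direction by limma, where 0.164% and 0.309% of 32367 genes were; CDC25B then had an adjusted p of 0.0562.

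**Figure D5:**
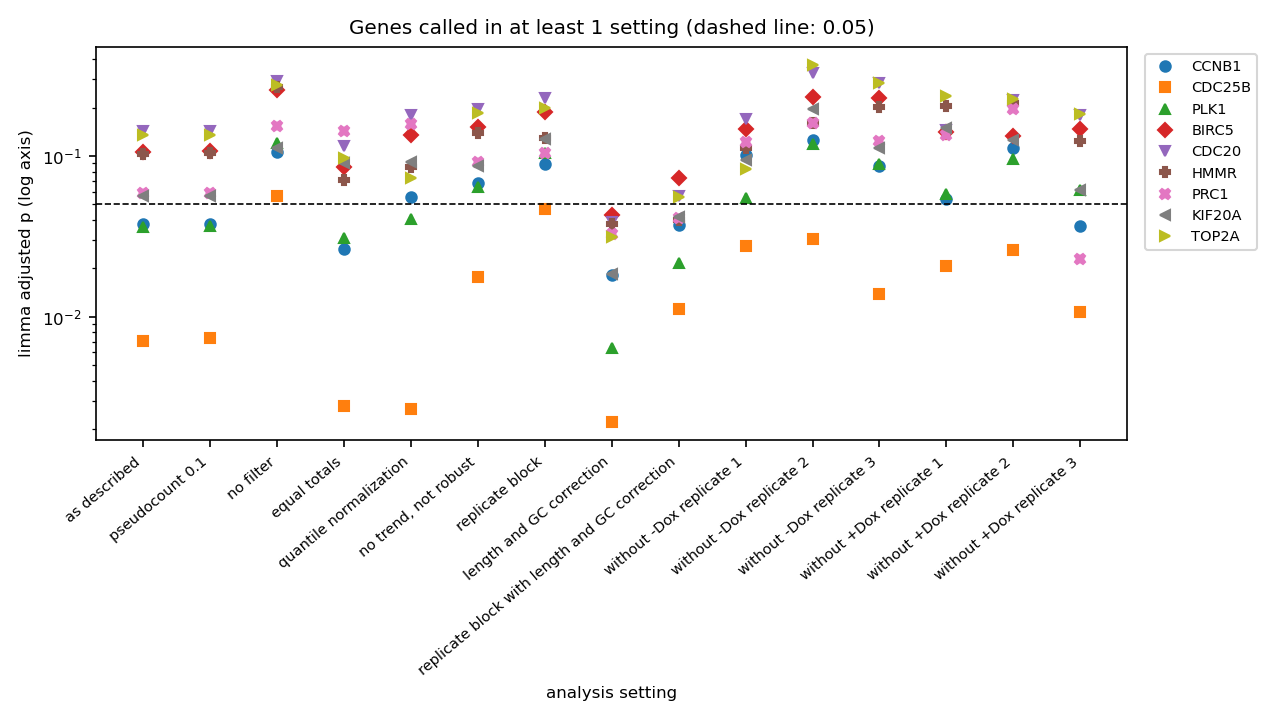
Vertical axis: limma adjusted p on a log scale, with a dashed line at 0.05. Horizontal axis: the analysis as described and 14 other settings, for the 9 genes called in at least 1 of them. CDC25B lies below the line in every setting other than that without a filter, and PLK1 lies above it whenever a library is left out.

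Other mitotic genes were put in 10 lists written from textbook knowledge, but with earlier results of these data known. They gave 9 higher and 6 lower of 169 tested genes (limma, 5.33% and 3.55%), with a median log2 change of 0.03. Those shares are near the 3.69% and 4.77% of all tested genes. Within the inner centromere and KMN (KNL1, MIS12 and NDC80) network list 4 of 24 rose (16.7%, against 3.69% of all tested genes) and 0 fell, while its median was -0.03. CENPL, a subunit of the constitutive centromere network, rose from 7.89 ± 0.834 to 11.5 ± 0.820 FPKM (log2 0.50, adjusted p = 0.0239), MIS12, which links it to the NDC80 complex, from 13.7 to 19.2 FPKM (log2 0.46), and PMF1, a partner of MIS12, from 24.3 to 33.3 FPKM (log2 0.44). The other was CENPW, at a limma adjusted p of 0.0492. Among 10 further checkpoint genes 1 rose and 1 fell (10% each, against 3.69% and 4.77% of all tested genes). MAD2L1BP, which helps to switch the checkpoint off, rose (20.2 to 27.4 FPKM, log2 0.42). KNTC1, a subunit that recruits dynein to kinetochores, fell (27.3 to 20.0 FPKM, log2 -0.43). The calls of CENPL, MIS12, PMF1, MAD2L1BP and KNTC1 were lost in 5, 4, 5, 3 and 3 of the 6 fits with a library dropped.

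MuvB, its partners and related E2F factors repress or activate the G2/M promoters described above. Of 13 tested, 2 fell (15.4%, against 4.77% of all tested genes) and 0 rose. RBL2, which encodes the pocket protein p130, fell from 10.6 ± 0.393 to 5.54 ± 0.534 FPKM (log2 -0.83, limma adjusted p = 0.00288), and its call held whichever library was dropped. RBBP4, a histone-binding MuvB subunit, fell from 176 ± 9.57 to 134 ± 3.48 FPKM (log2 -0.39, adjusted p = 0.0195), a call lost in 4 of the 6 fits. Its 6 pseudogenes, at up to 24.5 FPKM, could have exchanged reads with it.

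Of 22 condensin and cohesin genes 1 fell, the cohesin acetyltransferase gene ESCO2 (24.4 to 17.3 FPKM, log2 -0.48, limma adjusted p = 0.0209), and 0 rose. ESCO2 lost its call in 1 of the 6 fits with a library dropped (-Dox replicate 2, adjusted p = 0.0949). Of 31 other spindle, centrosome and cytokinesis genes 2 fell, the augmin subunits HAUS4 (log2 -0.42) and HAUS5 (log2 -0.41), and 0 rose. Their calls were lost in 4 and 5 of the 6 fits with a library dropped. Of 11 tubulin genes 1 rose, TUBB2B (6.16 to 8.99 FPKM, log2 0.48), which can share reads with the similar TUBB2A and lost its call in 5 of those fits. The tubulin median was 0.22. In 20 other G2/M genes 2 rose, and the median was 0.16. They were the nuclear import receptor gene KPNA2 (307 to 386 FPKM, log2 0.33) and the lamin gene LMNB1 (57.7 to 70.3 FPKM, log2 0.28). Each lost its call in 5 of the 6 fits. In the cohesin and spindle lists 4.55% and 6.45% were called lower, against 4.77% of all tested genes. In the tubulin and other G2/M lists 9.09% and 10% were called higher, against 3.69%.

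None of 17 APC/C subunits and inhibitors passed the limma test (0 called). An unadjusted limma p under 0.05 was reached by 2 with higher and 2 with lower values. That is 11.8% each, against 13.6% and 14.3% of all tested genes. ANAPC5 was nearest, at 49.4 ± 0.552 and 40.7 ± 2.31 FPKM (adjusted p = 0.0564). Of 12 genes of the greatwall kinase and mitotic phosphatases 0 passed the limma test. An unadjusted limma p under 0.05 was reached by 2, both with higher values (16.7%, against 13.6% of all tested genes). PPP1CA, a catalytic subunit of protein phosphatase 1, was at 99.5 ± 10.1 and 127 ± 14.2 FPKM (adjusted p = 0.0741). Among 9 genes that hold cells in G1 or G2, 1 rose (11.1%, against 3.69% of all tested genes) and 0 fell. It was CDKN1B (the CDK inhibitor p27), from 16.8 ± 0.454 to 23.3 ± 0.462 FPKM (log2 0.45, limma adjusted p = 0.0129). Its call was lost without -Dox replicate 2 (limma adjusted p = 0.0754) or +Dox replicate 2 (0.0506). In the G1/S and DNA replication list 8 of 36 fell (22.2%, against 4.77% of all tested genes) and 0 rose, with a median of -0.08. That list too was chosen with earlier results of these data known. UNG, the uracil-removing DNA repair glycosylase gene (log2 -0.54, limma adjusted p = 0.00732), and E2F2, a G1/S transcription factor gene (log2 -0.62, adjusted p = 0.00786), were among those that fell.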

How the data were processed

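Per gene and library the deposited table gives a single value. The header names no unit, and the authors' values were taken as FPKM from their sums and steps. Per the submitters' processing notes the tools were Bowtie, BWA, STAR, Cufflinks, RSEM and kallisto, with no version and no role for any of them, and the build was hg19. The loci are instead those of GRCh38 counted from 0: 39290 of 39300 versioned identifiers shared with GENCODE 29 had its locus after that offset. Only 5 of the 46 genes shared a versioned identifier, and all 5 had that locus. Strand, length, GC content and overlaps of the 46 genes were read from that release by identifier without version. The labels do not state strandedness, and 20 of the 46 genes overlap a gene on the opposite strand, PLK1 included.

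A gene was tested where 3 or more libraries reached 1 FPKM (14475 genes). The model was limma 3.58.1 (R 4.3.3, trended and robust) on log2(FPKM + 1), comparing the groups with no other term. Its two-sided p-values were Benjamini-Hochberg adjusted over all tested genes. This scale understates changes of low values. Depth was estimated by reading the lowest values of 3640 single-exon genes longer than 1000 bases as 1 fragment each (estimates between 12000000 and 21000000 fragments were used), and its limits cover counting error only. An exact two-sided permutation test gave p = 0.1 for CAPG, and 3 against 3 libraries allow no smaller value. The fit and the length and GC correction were tested on simulated data.

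The members, lists and tests were chosen with earlier results of these data known. Named genes were CAPG, members past the threshold, the 2 smallest p-values per group, and up to 3 called genes (or the nearest) per further list. The remaining members were named for their level or their partners, and CENPW to complete a count. A further gene that this rule names is not reported here.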

Additional observations from a re-analysis of the deposited data

How the results depend on the processing

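CAPG kept its direction and its call in all 14 settings. The G2/M genes called higher (2) and lower (1) numbered 0 and 0 with no filter on low values, 6 and 3 after the length and GC correction, 1 and 1 after quantile normalization, and 0 and 1 without the trended, robust fit. Leaving out a library gave 0 to 2 higher and 1 lower. For all genes (534 higher, 691 lower) the counts were 53 and 100, 1277 and 1049, 616 and 703, and 354 and 605 in the same 4 settings, and 85 to 403 and 157 to 597 when a library was left out. The median log2 change of the 46 genes was 0.0363 with equal totals and 0.0278 after quantile normalization. In these settings the median of all tested genes was -0.0504 and 0.0043. CENPF ranged from -0.0071 to 0.29 when a library was left out. No pairing by replicate number was seen: deviations of same-numbered libraries correlated at -0.04, 0.0094 and -0.02. Differently numbered libraries gave -0.0856 to 0.102. These values cannot show whether same-numbered libraries shared a culture or batch. With the replicate block 0 of the 46 were higher and 1 lower (69 and 142 of all genes), and with the block and the length and GC correction 4 and 2 (972 and 801). The cause of these differences was not tested.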
